A study of Mus musculus with 43 samples.

Results

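The genes described here are 46 mouse genes of the motile cilium and its core, the axoneme, chosen by symbol for their known roles as regulators, dynein arm subunits, radial spoke, central pair, tektin and tip proteins. Of the 46 listed genes, 43 were found among the 24475 gene IDs of the count table, and all 43 passed the filter on low counts that left 15598 genes to test. Dnah3, Dnah12 and Cfap54 were not analysed here. RNA was sequenced from lung of mice carrying the Il33hu/hu genotype on a mixed strain, C57BL/6NTac (75%) / 129S6SvEvTac (25%), in 43 libraries. The groups were saline (7 libraries, no time point given), house dust mite (HDM) allergen for 4 weeks (10), HDM for 15 weeks (7), HDM for 15 weeks with an isotype control antibody (4) and HDM for 15 weeks with an antibody against the cytokine IL-33 (15). Every group, the saline controls included, carried the same genotype and mixed strain. The age of the mice is not stated in the sources used here. The labels do not say in words that each library is a separate mouse, so the p-values measure the spread between these libraries.

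Motile cilia are beating, hair-like organelles that stand in tufts on multiciliated cells of the airway lining and move mucus out of the lung. A programme of transcription factors, with Mcidas near its start and Foxj1 and the RFX factors Rfx2 and Rfx3 further on, switches on the genes for the axoneme. In the axoneme, outer and inner dynein arms pull on the microtubule doublets, and radial spokes, nexin links and a central pair of microtubules set the beat. Ciliated cells share the airway surface with club cells, which secrete proteins such as Scgb1a1, and with mucus-making goblet cells. In RNA from whole lung, fewer ciliated cells and less of an mRNA per ciliated cell cannot be told apart.

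RFX factors bind a DNA element with the core GTTGCC, and the start regions of several regulators hold that core. The RefSeq table of promoters (build GRCm38.p6, 250 bases before to 50 after the transcription start, 300 in all) has entries for 39 of the 46 genes. The letters GTTGCC, read on both strands, were present for 20 of these 39 genes (51.3%), against 14.1% of the 27025 genes in the table and 12.5% of its 32851 promoters. Among 73 other motile cilia genes with an entry, 47.9% held them. The longer form GTTGCCATG, which contains the shorter one, was found for 2 members (5.1%, against 0.88% of all genes), Deup1 and Sntn. The forkhead element TGTTTAC was found for Cfap43, Ak7 and Sntn (7.7% of 39 members against 4.05% of all genes). These letter matches are a description, not shown binding sites. The 6 sequences below, of the 2 members with the longer form and of the next 4 regulators in list order with the shorter one, show where the letters lie; each is written 5′ to 3′ on the gene's own strand, in lower case with the matches in capitals.
Deup1 (chr9:15627797-15628096, minus strand, match on the opposite strand): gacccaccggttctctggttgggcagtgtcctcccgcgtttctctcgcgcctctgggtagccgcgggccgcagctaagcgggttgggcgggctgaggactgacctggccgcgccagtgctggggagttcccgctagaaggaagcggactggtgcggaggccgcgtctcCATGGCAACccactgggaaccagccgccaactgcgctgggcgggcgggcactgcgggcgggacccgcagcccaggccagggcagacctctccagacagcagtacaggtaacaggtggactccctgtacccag
Sntn (chr14:13670626-13670925, plus strand, with the forkhead letters as well): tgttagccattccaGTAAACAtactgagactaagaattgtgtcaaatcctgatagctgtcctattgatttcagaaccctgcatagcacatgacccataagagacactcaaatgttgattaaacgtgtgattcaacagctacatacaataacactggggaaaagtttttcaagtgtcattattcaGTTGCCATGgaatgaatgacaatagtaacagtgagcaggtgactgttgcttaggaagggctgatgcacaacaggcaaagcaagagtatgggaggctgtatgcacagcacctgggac
Mcidas (chr13:112993618-112993917, plus strand): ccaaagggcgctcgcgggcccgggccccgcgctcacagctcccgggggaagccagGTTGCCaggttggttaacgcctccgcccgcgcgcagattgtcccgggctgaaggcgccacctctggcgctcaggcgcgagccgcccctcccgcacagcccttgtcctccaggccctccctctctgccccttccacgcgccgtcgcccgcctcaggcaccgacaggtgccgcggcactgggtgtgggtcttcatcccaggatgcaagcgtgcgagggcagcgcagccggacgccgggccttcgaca
Ccno (chr13:112987552-112987851, plus strand): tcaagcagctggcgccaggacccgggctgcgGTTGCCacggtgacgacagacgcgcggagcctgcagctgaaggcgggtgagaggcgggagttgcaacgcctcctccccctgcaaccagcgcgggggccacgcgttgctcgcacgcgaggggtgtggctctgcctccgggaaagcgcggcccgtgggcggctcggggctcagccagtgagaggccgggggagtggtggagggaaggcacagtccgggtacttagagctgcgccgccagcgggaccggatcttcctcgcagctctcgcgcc
Rfx2 (chr17:56830959-56831258, minus strand): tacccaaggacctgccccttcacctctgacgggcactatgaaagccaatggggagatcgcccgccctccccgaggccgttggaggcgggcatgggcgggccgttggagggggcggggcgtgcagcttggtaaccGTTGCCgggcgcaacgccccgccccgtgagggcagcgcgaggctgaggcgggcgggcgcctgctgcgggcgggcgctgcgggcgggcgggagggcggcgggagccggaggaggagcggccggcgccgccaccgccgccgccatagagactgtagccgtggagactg
Rfx3 (chr19:28011117-28011416, minus strand): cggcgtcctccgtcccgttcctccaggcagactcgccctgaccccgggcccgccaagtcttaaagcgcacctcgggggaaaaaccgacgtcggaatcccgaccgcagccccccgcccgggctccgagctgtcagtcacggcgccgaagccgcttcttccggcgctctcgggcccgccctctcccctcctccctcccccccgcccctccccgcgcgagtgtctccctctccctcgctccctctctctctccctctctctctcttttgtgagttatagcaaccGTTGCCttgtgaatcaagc
The GTTGCCATG letters of Sntn begin 66 bases before the start and its forkhead letters, on the opposite strand, 236 bases before it. The capitals of Deup1 begin 82, of Rfx2 116, of Mcidas 195 and of Ccno 219 bases before it, and those of Rfx3 31 bases after it. Deup1, which helps to make the many centrioles that ciliated cells need, has 2 promoters in the table, and the one with the match is shown.

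Total counts ran from 4.795 to 12.599 M (M, 1000000 counts) per library, with group medians between 8.548 and 10.84 M. Levels are given as CPM, the count scaled to 1000000 in the TMM-scaled library, and differences as log2 fold changes from an edgeR quasi-likelihood fit of all 43 libraries, with Benjamini-Hochberg adjustment over the 15598 genes. A gene is said to rise or fall where the adjusted p is under 0.05. The sample numbers in the labels fall into 2 ranges, of 22 and 21 libraries, and the fit has a term for the range. In 2 libraries, known to stand apart from an earlier analysis of these data, the members' deviations went with a property of the transcripts. In HDM 4-week replicate 3 the shortest transcripts were highest (Spearman's rho of the deviation from its group with transcript length -0.81 over 43 genes), and in HDM 15-week replicate 1 the GC-rich ones were highest (rho with GC content 0.78). HDM 15-week replicate 1 held 143 CPM of Foxj1, the highest of its group, but 16.04 CPM of Dnah5, the second lowest. A relation with length above 0.65 in size was also seen in HDM 4-week replicates 8 and 9 (rho 0.76 and 0.74), HDM 15-week replicate 6 (0.69) and isotype replicate 1 (-0.73), which is 1 of the 4 libraries of its group. Counts over all 43 members that open a comparison are also given without the 2 libraries that stand apart.

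In saline lung the members spanned a wide range of levels. Levels were also divided by the length of the longest transcript linked to each gene. This allows only a rough comparison of genes, and saline replicate 1 deviated from its group with length (rho -0.6). Per kilobase, Tppp3, a tubulin-binding protein abundant in ciliated cells, had the highest mean level (191.5 CPM per kb), followed by the nexin link gene Ccdc153 (45.9), the dynein light chain gene Dynlrb2 (43.4) and Foxj1 (34.8). Dynein heavy chains were far lower on this scale, from 2.19 CPM per kb for Dnah11 to 8.73 for Dnah6. The lowest were the early regulators Deup1 (1.48), Ccno (0.999) and Mcidas (0.524 CPM per kb). Mcidas counts were so low that its level reached only 2.71 CPM in the highest saline library and 0 in 1 anti-IL-33 library. Saline had the highest group mean for 42 of 43 members, the exception being the adenylate kinase gene Ak8, highest under anti-IL-33. The group with anti-IL-33 ranked second for 38, and the lowest mean was that of HDM 15 weeks for 29 and of the isotype group for 13. RNA that marks other ciliated tissues was at or near 0: testis genes Tnp1, Prm1, Prm2, Tnp2, Akap4 and Crisp2 reached at most 0.759 CPM in any library, and Tnp1 and the choroid plexus gene Ttr were 0 in all 43.

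**Figure D1:**
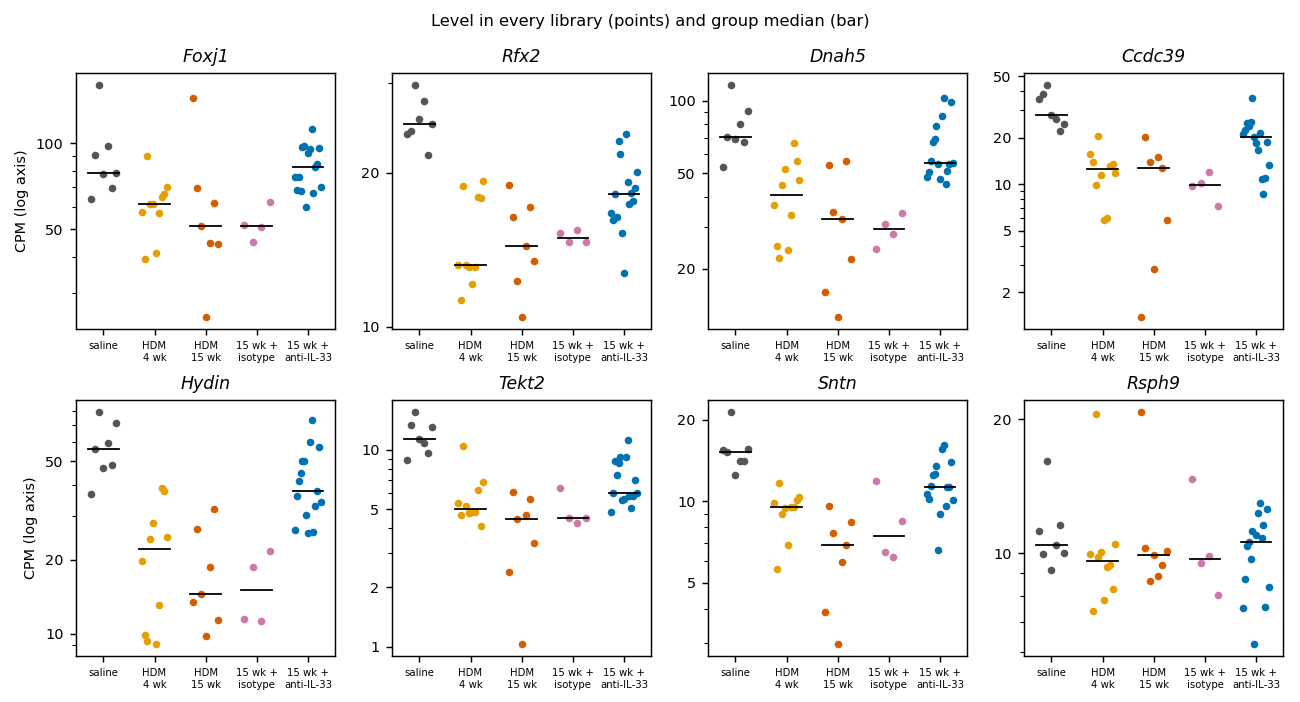
Level of 8 members in every library (points, CPM on a log axis) with the group median (bar), for saline (7 libraries), HDM 4 weeks (10), HDM 15 weeks (7), HDM 15 weeks with isotype antibody (4) and with anti-IL-33 (15). Rfx2, Ccdc39, Hydin, Tekt2 and Sntn had every HDM 15-week library below every saline library, while Rsph9 overlapped in all groups.

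HDM exposure came with lower RNA of most cilia genes. At 4 weeks 33 of the 43 members fell and none rose (median log2 fold change -0.78), and at 15 weeks 37 fell and none rose (median -1.10). All 43 estimates were below 0 in both comparisons, which share the saline libraries. Over all 15598 genes, 27.5% fell and 29.3% rose at 4 weeks, 28.1% fell and 31.2% rose at 15 weeks, and the medians over all genes were 0.01 and 0.015. Without the 2 libraries that stand apart, 38 members fell at 4 weeks and 39 at 15 weeks, where 4813 and 4825 of 15577 genes fell. Within number range 1 alone (4 HDM against 2 saline libraries) 11 fell at 4 weeks with a median of -0.76, and within range 2 (6 against 5) 35 fell with a median of -0.84. In those fits 1026 of 15471 and 4400 of 16090 genes fell. At 15 weeks the counts were 27 in range 1 and 34 in range 2, where 1982 of 15471 and 3229 of 16090 genes fell. Every 4-week library lay below every saline library for 13 members (10% of all genes did), and every 15-week library for 22 (13.8% of all genes). Under offsets for GC content and length 38 fell at 4 weeks and 42 at 15 weeks, where 4138 and 4287 of 15598 genes fell.

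**Figure D2:**
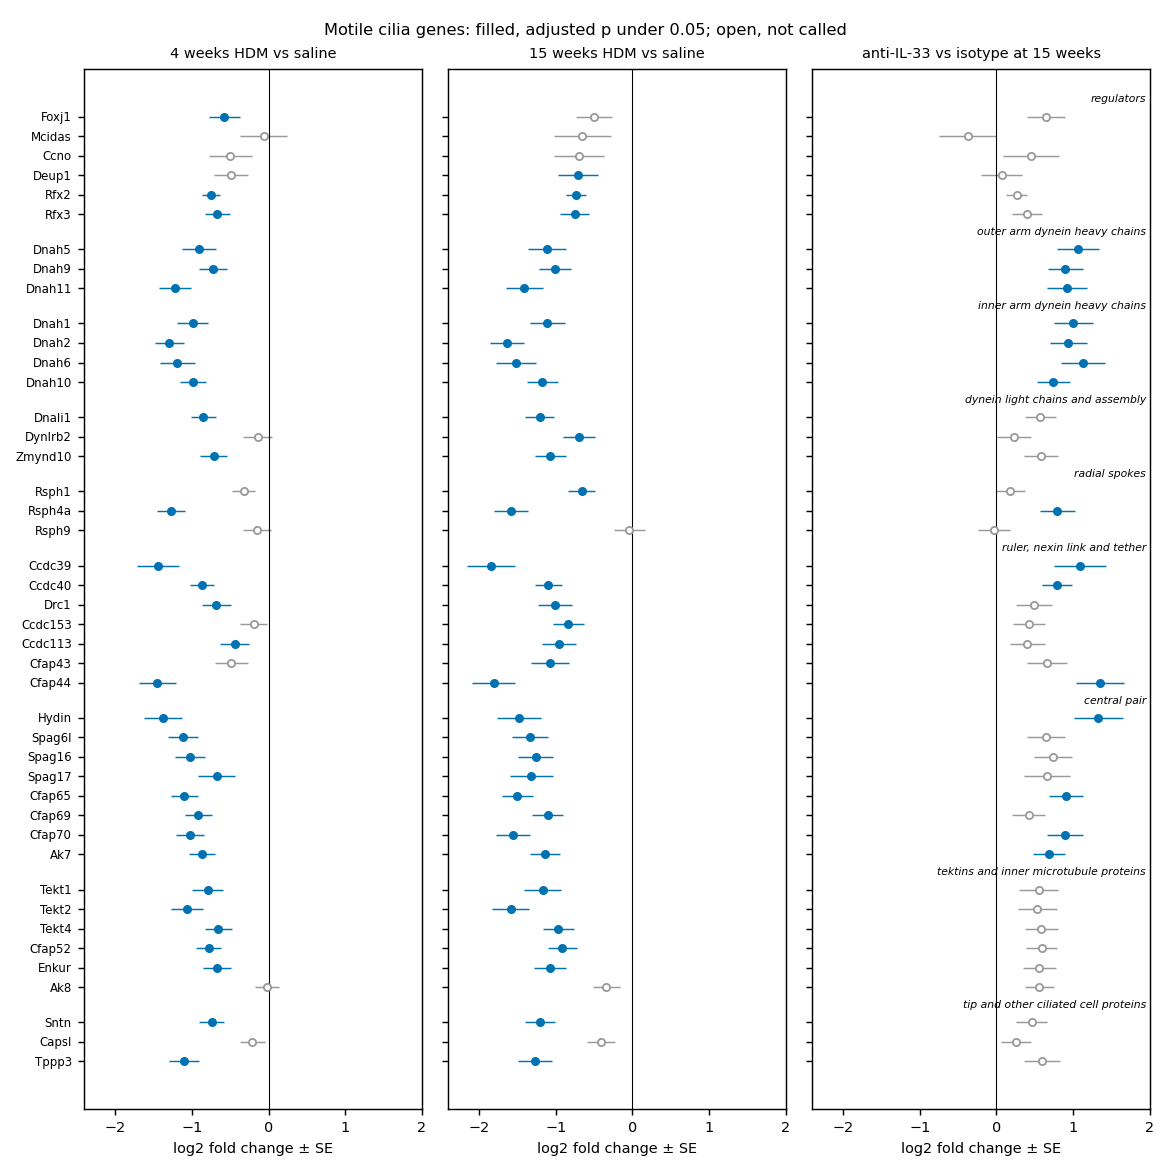
Log2 fold change (point) ± SE (bar) of the 43 members, grouped by role, in 3 panels: 4 weeks of HDM against saline (10 and 7 libraries), 15 weeks of HDM against saline (7 and 7), and at 15 weeks anti-IL-33 against isotype (15 and 4). Filled points passed adjusted p under 0.05: 33, 37 and 15 of 43. All points of the first and second panels lie below 0.

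Among the 6 regulators, 3 fell at 4 weeks and 3 at 15 weeks (medians -0.54 and -0.71). Foxj1, the factor that drives the motile cilia genes, had a lowest, median and highest level of 63.7, 78.8 and 159.5 CPM in saline, 39.5, 61.2 and 90.4 at 4 weeks and 24.7, 51.5 and 143 at 15 weeks. The groups overlapped: 4 of the 10 libraries at 4 weeks and 2 of the 7 at 15 weeks lay above the lowest saline library, and the top 15-week library was replicate 1, one of the 2 that stand apart. The 4-week difference was -0.57 ± 0.20 (SE, adjusted p = 0.01602). At 15 weeks the estimate of -0.50 ± 0.23 (SE, adjusted p = 0.0616) did not pass, with a 95% interval of -0.98 to -0.03. Without the 2 libraries that stand apart it was -0.81 ± 0.19 (SE, adjusted p = 0.000276), which passed. Rfx2, a partner of Foxj1 in the same programme, was at 21.6, 24.9 and 29.7 CPM in saline, 11.3, 13.2 and 19.3 at 4 weeks and 10.4, 14.4 and 18.9 at 15 weeks. No HDM library of either time reached the lowest saline library, and Rfx2 fell, with log2 fold changes of -0.75 at 4 weeks and -0.74 at 15 weeks (SE 0.12 and 0.13). Its relative Rfx3 fell, with log2 fold changes of -0.67 at 4 weeks and -0.75 at 15 weeks. Its levels were 25.6, 33.9 and 37.96 CPM in saline, 12.8, 20.6 and 28.1 at 4 weeks and 5.89, 21.3 and 27.6 at 15 weeks. Mcidas, which starts the multiciliated fate, was at 1.002, 1.32 and 0.655 CPM (medians of saline, 4 and 15 weeks), and its estimates of -0.06 and -0.66 did not pass. Ccno, needed for centriole amplification, had medians of 2.13, 1.65 and 1.23 CPM and also did not pass (adjusted p = 0.1204 and 0.0636), but fell without the 2 libraries that stand apart (-0.56 and -1.01, adjusted p = 0.0478 and 0.00487). Deup1 had medians of 3.7, 3.2 and 2.46 CPM and fell at 15 weeks (-0.71 ± 0.26 SE, adjusted p = 0.0182), and its 4-week estimate of -0.49 did not pass.

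All 3 outer arm heavy chains and all 4 inner arm heavy chains measured fell at 4 and at 15 weeks, with medians of -0.91 and -1.11 for the outer and -1.09 and -1.35 for the inner arms. With offsets for GC content and transcript length these were -0.43 and -0.70 for the outer and -0.66 and -0.99 for the inner arms. Dnah5, a main outer arm motor whose loss causes human ciliary dyskinesia, was at 53.3, 70.8 and 116 CPM in saline, 22.2, 40.8 and 66.5 at 4 weeks and 12.6, 32.4 and 56.2 at 15 weeks (lowest, median, highest). The highest HDM libraries of either time overlapped the lowest saline ones, and the differences were -0.91 ± 0.22 (SE, adjusted p = 0.000562) and -1.11 ± 0.25 (SE, adjusted p = 0.000245). Dnah9, the motor of the outer arm near the cilium tip, had medians of 52.9, 30.9 and 18.3 CPM, and Dnah11, its counterpart near the base, of 26.8, 13.2 and 9.91 CPM. For Dnah11 every HDM library was below every saline library. Of the inner arm motors, Dnah2 fell most (-1.64 ± 0.22 SE, adjusted p = 8.47e-08 at 15 weeks), from a median of 33.5 to 9.94 CPM. Dnah6 had medians of 111, 46.1 and 33.9 CPM and Dnah1 of 35.3, 15.2 and 15.9 CPM. Dnah10 fell, with log2 fold changes of -0.98 at 4 weeks and -1.18 at 15 weeks.

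Of the smaller arm components, Dnali1, a light chain of the inner arms, fell at both times (-0.85 and -1.21), as did Zmynd10, which helps to assemble dynein arms before they enter the cilium (-0.71 and -1.07). Dnali1 had medians of 28.1, 17.1 and 12.1 CPM in saline, at 4 and at 15 weeks, and Zmynd10 of 13.2, 8.43 and 6.39 CPM. Dynlrb2, a light chain of the roadblock family, was at 17.1, 20.7 and 35.3 CPM in saline, 13.2, 19.3 and 49.6 at 4 weeks and 8.12, 14.8 and 18.9 at 15 weeks. Its highest library of all was HDM 4-week replicate 3, one of the 2 that stand apart. Dynlrb2 did not pass at 4 weeks (-0.14, and -0.34 with adjusted p = 0.0405 without the 2 libraries that stand apart) and fell at 15 weeks (-0.69 ± 0.21 SE, adjusted p = 0.00487).

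The radial spokes, which carry signals from the central pair to the dyneins, were uneven. Rsph4a, a spoke head protein, fell from 25.6, 35.2 and 47.6 CPM in saline (lowest, median, highest) to 9.86, 12.2 and 22.7 at 4 weeks and 4.01, 12.8 and 15.9 at 15 weeks. No HDM library reached a saline one, and the 15-week difference was -1.58 ± 0.22 (SE, adjusted p = 1.37e-07). Rsph1, also a spoke head protein, fell at 15 weeks (-0.66 ± 0.18 SE, adjusted p = 0.00167), at 4 weeks passed without those 2 libraries (-0.45, adjusted p = 0.00264) and not with them (-0.33), and had medians of 25.6, 20.5 and 18.4 CPM. Rsph9, the other spoke head member, was at 9.15, 10.4 and 16.1 CPM in saline, 7.41, 9.597 and 20.6 at 4 weeks and 8.68, 9.92 and 20.8 at 15 weeks. Its groups overlapped throughout, and the 15-week estimate of -0.04 ± 0.20 (SE, adjusted p = 0.874) had a 95% interval of -0.45 to 0.36. Both stand-apart libraries were the highest of their group for Rsph9 (20.6 and 20.8 CPM). By gene span Rsph9 lies over Mrps18a and Rsph1 over Ubash3a, and whether their exons overlap was not examined. Since no source used here gives the strand setting of the counting, reads from any stretch that such genes share cannot be told apart. The same holds for Dnah11 with Cdca7l, Dnali1 with Gnl2, Ccdc39 with Ttc14, Ccdc40 with Tbc1d16, Spag6l with Rpl31-ps12, Spag17 with Wdr3 and Ak8 with Spaca9.

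All 7 genes measured that space, link and tether the axoneme's parts fell at 15 weeks. Ccdc39, which with Ccdc40 forms the ruler that sets the repeat along the doublets, had a lowest, median and highest level of 21.99, 28.2 and 43.9 CPM in saline, 5.899, 12.5 and 20.6 at 4 weeks and 1.38, 12.7 and 20.1 at 15 weeks. Every HDM library was under the lowest saline library, and at 15 weeks the difference was -1.84 ± 0.31 (SE, adjusted p = 4.09e-06). HDM 15-week replicate 1, which stands apart, was the lowest, at 1.38 CPM, and Ccdc39 has the lowest GC content of the members (39.9%). Without the 2 libraries that stand apart the differences were -1.67 for Ccdc39 and -1.68 for Cfap44, so the order of these genes is not given. Ccdc40 fell, with log2 fold changes of -0.87 at 4 weeks and -1.099 at 15 weeks, from a saline median of 37.4 to 21.2 and 16.4 CPM. Cfap44, part of the tether of an inner arm, had the largest fall at 4 weeks (-1.45 ± 0.24 SE, adjusted p = 3.79e-06) and fell by 1.81 at 15 weeks. Its tether partner Cfap43 had medians of 56.5, 45 and 30.5 CPM, missed the threshold at 4 weeks (adjusted p = 0.0512, or 0.0149 without the 2 libraries that stand apart) and fell at 15 weeks (-1.07). Of the nexin link genes, Drc1 fell at both times (-0.68 and -1.01), and Ccdc153 fell at 15 weeks (-0.84) but did not pass at 4 weeks (-0.20, or -0.35 with adjusted p = 0.0393 without those 2 libraries). Their medians were 22.2, 15.1 and 11.2 CPM for Drc1 and 48.7, 39.5 and 29.97 CPM for Ccdc153. Ccdc113 fell, with log2 fold changes of -0.44 at 4 weeks and -0.95 at 15 weeks.

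All 8 central pair members measured fell at both times, with medians of -1.02 at 4 weeks and -1.33 at 15 weeks. Hydin, a very large projection protein of the central pair, was at 36.8, 56.2 and 79.3 CPM in saline, 9.102, 21.97 and 39.1 at 4 weeks and 9.79, 14.5 and 32.1 at 15 weeks. At 15 weeks its libraries did not overlap saline, and the difference was -1.48 ± 0.29 (SE, adjusted p = 3.51e-05). Spag6l had medians of 16.7, 8.99 and 6.61 CPM (-1.11 and -1.33), but it has a near-identical copy, Spag6, with which reads could be shared. The others ranged at 15 weeks from -1.104 for Cfap69 to -1.56 for Cfap70, with Ak7 at -1.14 (medians 40.8, 23.8 and 20.2 CPM), Spag16 at -1.26, Spag17 at -1.32 and Cfap65 at -1.503.

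Of the 6 tektins and inner microtubule proteins, 5 fell at both times and 1 did not pass at either. Tekt2, a filament protein inside the doublets, was at 8.93, 11.4 and 15.6 CPM in saline, 4.098, 5.02 and 10.5 at 4 weeks and 1.03, 4.44 and 6.11 at 15 weeks, and fell, with log2 fold changes of -1.06 at 4 weeks and -1.59 at 15 weeks. Only the top 4-week library entered the saline range, and no 15-week library did. Tekt1 had medians of 18.3, 11.5 and 8.97 CPM (-1.17 at 15 weeks) and Cfap52 of 15.1, 9.201 and 7.37 CPM (-0.92). Tekt4 and Enkur fell, with log2 fold changes of -0.97 and -1.08 at 15 weeks. Ak8 was the exception, at 4.61, 5.86 and 8.601 CPM in saline, 4.59, 6.15 and 8.68 at 4 weeks and 3.09, 4.76 and 8.29 at 15 weeks, with estimates of -0.02 ± 0.15 (SE, adjusted p = 0.932) and -0.34 ± 0.18 (SE, adjusted p = 0.0896). In the remaining class, Sntn, a protein of the ciliary tip, fell from 12.5, 15.2 and 21.4 CPM in saline to 5.597, 9.51 and 11.7 and 2.96, 6.91 and 9.602 at 4 and 15 weeks (-0.74 and -1.21), with no overlap at either time. Tppp3 fell, with log2 fold changes of -1.1 at 4 weeks and -1.27 at 15 weeks, from a median of 259 to 112 and 102 CPM. Capsl, a calcium-binding protein found in ciliated cells, had medians of 11.5, 10.2 and 8.29 CPM and did not pass at 15 weeks (-0.41 ± 0.18 SE, adjusted p = 0.0553).

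The order of the classes went with transcript length. Across the 43 members the log2 fold change at 15 weeks had a Spearman's rho of -0.48 with transcript length, and at 4 weeks of -0.59. Members of 5 kb or longer (13 genes, the dynein heavy chains and Hydin among them) had a median of -1.32 at 15 weeks, and those shorter than 2 kb (14 genes) of -0.96. Members are not independent of each other, and each point shares the same libraries, so these values are a description. With offsets for GC content and length fitted in each library, rho was 0.14 at 15 weeks and 0.27 at 4 weeks. The class medians at 15 weeks then changed order: the outer arm heavy chains moved from -1.11 to -0.70, the inner arm heavy chains from -1.35 to -0.99, the radial spokes from -0.66 to -0.95 and the light chains and assembly factors from -1.07 to -1.33. The order of the classes is therefore not given as a result. The fall itself was called for 42 of 43 members under these offsets, where 4287 of 15598 genes fell. The part of RNA quality in the relation with length was not tested.

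**Figure D3:**
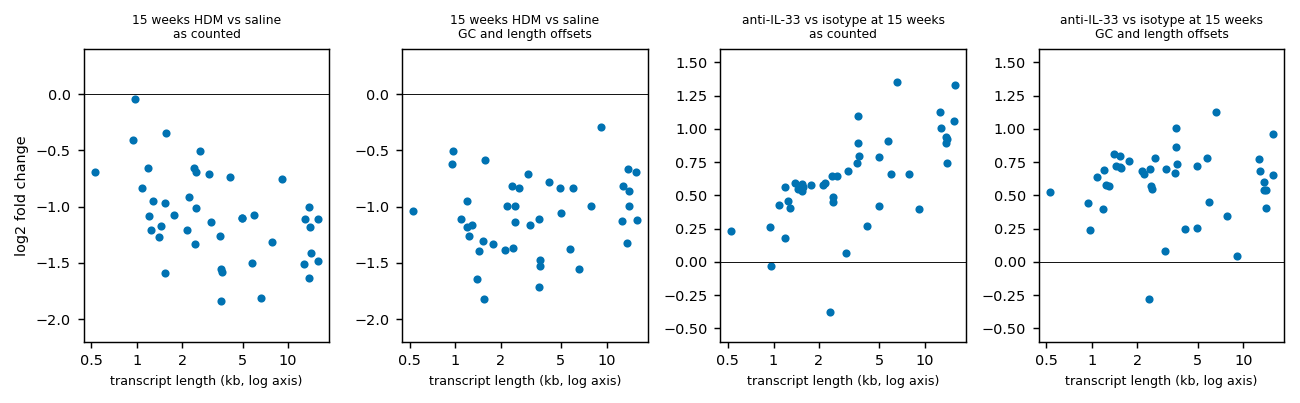
Log2 fold change of the 43 members (points) against transcript length (kb, log axis), for the saline and the isotype comparison at 15 weeks, each as counted and with offsets for GC content and length. Spearman's rho goes from -0.48 to 0.14 in the first comparison and from 0.72 to 0.05 in the second, while most points stay on the same side of 0.

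Few members passed the test between 4 and 15 weeks of HDM. Of 43 members, 2 fell further and none rose, with a median of -0.31, where 9.08% of all genes fell and 12.3% rose. The 2 were Ccdc153 (-0.64 ± 0.18 SE, adjusted p = 0.0115) and Dynlrb2 (-0.55 ± 0.19 SE, adjusted p = 0.0376). In both, HDM 4-week replicate 3 was the highest library of its group. Without the 2 libraries that stand apart no member passed in edgeR's test (3 at an unadjusted p under 0.05). In that fit 1228 of 15577 genes fell and 1505 rose, and 4952 had an unadjusted p under 0.05. DESeq2, with all libraries, called 6 lower, where 1667 of 15598 genes fell. In edgeR's test 12 members and 5495 of 15598 genes had an unadjusted p under 0.05. The smallest difference was that of Rfx2 (0.01, 95% interval -0.23 to 0.26).

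**Figure D4:**
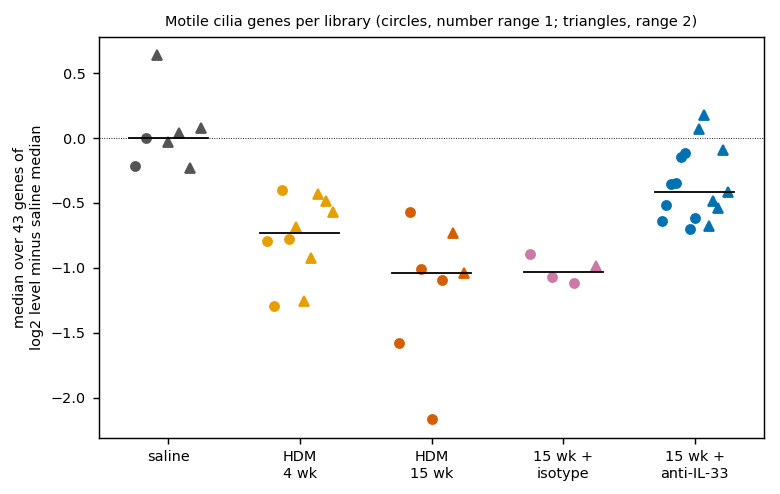
Median over the 43 members of the log2 level minus the saline median (y axis), 1 point per library, by group, with the group median as a bar. Circles are libraries of number range 1 and triangles of range 2. All HDM libraries without anti-IL-33 lie below the saline libraries, between -2.17 and -0.40, and the anti-IL-33 libraries lie between -0.70 and 0.18.

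In several libraries most members deviated from their group in the same direction, while in others, such as HDM 4-week replicate 4 (22 of 43 below their group median) and isotype replicate 1 (22 of 43), they were split. Summarised as the median over the 43 genes of the log2 level relative to saline, the libraries ran from -0.23 to 0.64 in saline, from -1.29 to -0.40 at 4 weeks (median -0.73) and from -2.17 to -0.57 at 15 weeks (median -1.04). Isotype libraries lay between -1.12 and -0.89, and anti-IL-33 libraries between -0.70 and 0.18 (median -0.42). Only 2 of the anti-IL-33 libraries reached the saline median of 0. Saline replicate 3 stood highest: all 43 members were above their group median there, with 159.5 CPM of Foxj1, and it also held the most Scgb1a1 of its group (24010 CPM). HDM 15-week replicate 4 stood lowest, with 41 of 43 members below their group median and 24.7 CPM of Foxj1. Its Scgb1a1 level was 2574 CPM. Without saline replicate 3, 30 members fell at 4 weeks and 36 at 15 weeks, where 4192 and 4255 of 15587 genes fell. Without HDM 15-week replicate 4, 37 members fell at 15 weeks, where 3945 of 15596 genes fell.

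Anti-IL-33 came with higher cilia RNA than the isotype antibody at 15 weeks. Of the 43 members 15 rose and none fell, the median was 0.59, and 41 estimates were above 0. Over all genes 3.58% rose and 3.14% fell. DESeq2 called 19 members higher, and 1026 of 15598 genes. For 15 members every anti-IL-33 library was above every isotype library, as was the case for 1.53% of all genes. The count turns on few isotype libraries. Without isotype replicate 1 or without replicate 3, no member passed in edgeR's test (31 and 26 at an unadjusted p under 0.05). In those 2 fits only 7 and 10 of 15806 genes rose at all. Without replicate 4, 7 members rose (302 of 15808 genes did), and without replicate 2, 13 rose (540 of 15807 genes did). Across the fits without 1 isotype library the median stayed between 0.56 and 0.69. Without the 2 HDM libraries that stand apart, which belong to neither group but enter the shared spread, 28 members rose (2308 of 15577 genes rose in that fit, and 2331 fell). With the 2 groups fitted alone 29 rose, where 1984 of 15160 genes rose and 2169 fell. With offsets for GC content and length 24 rose, where 611 of 15598 genes rose and 745 fell. Within number range 1 alone (8 against 3 libraries) 4 rose, where 101 of 15471 genes rose and 196 fell. Range 2 holds 1 isotype library and was not tested.

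All 7 heavy chains measured rose against isotype, 3 of the outer and 4 of the inner arms. Dnah5 was at 24.2, 30.7, 27.8 and 34.2 CPM in the 4 isotype libraries and at 44.97, 55.05 and 102 CPM (lowest, median, highest) in the 15 anti-IL-33 libraries. The groups did not overlap, and the difference was 1.06 ± 0.27 (SE, adjusted p = 0.0222). Dnah9, Dnah11, Dnah1, Dnah2, Dnah6 and Dnah10 rose by 0.90, 0.93, 1.003, 0.94, 1.13 and 0.74. The largest difference was in Cfap44 (1.35 ± 0.31 SE, adjusted p = 0.0108), at 8.32, 14.2, 14.9 and 19.9 CPM with isotype and 24.6, 33.2 and 66.98 CPM with anti-IL-33, again without overlap. Hydin went from 11.5, 18.7, 11.3 and 21.6 CPM with isotype to 25.5, 37.7 and 73.6 CPM, a difference of 1.33 ± 0.32 (SE, adjusted p = 0.0146). Ccdc39 (1.09), Ccdc40 (0.79), Rsph4a (0.80), Cfap65 (0.91), Cfap70 (0.89) and Ak7 (0.69) made up the rest of the 15. Here too the size went with transcript length, with rho 0.72 across the 43 members and 0.05 under the offsets, where the heavy chain medians were 0.54 (outer) and 0.64 (inner) against 0.66 for all members. In isotype replicate 1 the deviations of the members themselves went with length (rho -0.73), and its part in this relation was not tested.

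The members that did not pass against isotype were mostly above 0. The 6 tektins and inner microtubule proteins lay between 0.53 for Tekt2 and 0.59, none called. Tekt2 was at 6.4, 4.51, 4.25 and 4.52 CPM with isotype and 4.805, 6.06 and 11.2 CPM with anti-IL-33, and isotype replicate 1 was within the anti-IL-33 range. Sntn was at 11.9, 6.46, 6.199 and 8.45 and 6.57, 11.3 and 16.1 CPM (0.46 ± 0.20 SE, adjusted p = 0.136). Among the regulators none passed. Foxj1 was at 51.8, 45.2, 50.8 and 62.3 CPM with isotype and 59.8, 82.8 and 112 CPM with anti-IL-33, where the highest isotype library overlapped the lowest anti-IL-33 library (0.64 ± 0.25 SE, adjusted p = 0.0914). Rfx2 and Rfx3 had estimates of 0.27 and 0.40. Mcidas (-0.38) and Rsph9 (-0.03) were the 2 below 0, with 95% intervals of -1.13 to 0.38 and -0.45 to 0.39.

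Levels of the other members in the antibody groups, each as the 4 isotype libraries and then the lowest, median and highest of the 15 anti-IL-33 libraries, were as follows. Dnah9 was at 19.6, 22.3, 18.7 and 22.3 CPM and 25.5, 38.7 and 63.02 CPM, and Dnah1 at 11.1, 12.9, 8.51 and 14.6 CPM and 16.7, 22.6 and 34.99 CPM. Neither gene's groups overlapped. Dnah11 was at 11.1, 13.9, 8.63 and 12.1 CPM and 13.6, 19.1 and 34.6 CPM, with the top isotype library just inside the anti-IL-33 range. Ccdc39 was at 9.73, 10.1, 12.03 and 7.17 CPM and 8.67, 20.2 and 36.1 CPM, and Ccdc40 at 18.1, 19.1, 16.04 and 17.2 CPM and 21.04, 30.2 and 45.2 CPM. Of the 2 ruler genes, Ccdc39 overlapped between the groups and Ccdc40 did not. Rsph4a was at 11.8, 13.8, 13.5 and 16.3 CPM and 17.5, 23.8 and 36.5 CPM, Ak7 at 18.8, 22.8, 19.8 and 18.5 CPM and 25.3, 29.8 and 44.96 CPM, both without overlap. Among members that did not pass, Tppp3 was at 152, 102, 99.4 and 111 CPM and 118, 150.2 and 233 CPM, and Dynlrb2 at 23.04, 12.1, 17.3 and 17.3 CPM and 12.98, 20.2 and 24.8 CPM. Both overlapped.

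The remaining regulators and small arm genes were close between the antibody groups or widely spread. Rfx2 was at 15.2, 14.6, 15.4 and 14.6 CPM with isotype and 12.7, 18.1 and 23.8 CPM with anti-IL-33, and Rfx3 at 14.7, 21.3, 17.99 and 20.3 CPM and 19.2, 24.99 and 30.4 CPM. Deup1 was at 3.2, 2.68, 3.28 and 3.24 CPM and 1.88, 3.28 and 4.46 CPM, where isotype replicate 2 was the lowest of the 4. Ccno was at 0.768, 0.6097, 2.07 and 0.786 CPM and 0.836, 1.46 and 2.44 CPM, and Mcidas at 1.41, 0.732, 1.22 and 0.884 CPM and 0, 0.9695 and 1.64 CPM. At these few reads per library the groups overlapped. Dnali1 was at 15.1, 13.3, 12.9 and 13.8 CPM and 15.4, 19.6 and 31.7 CPM with no overlap, although its estimate of 0.57 had an adjusted p of 0.0702. Zmynd10 was at 9.22, 4.88, 6.08 and 6.29 CPM and 5.64, 10.1 and 13.1 CPM. Rsph1 was at 27.01, 18.4, 19.7 and 20.6 CPM and 19.8, 24.4 and 30.4 CPM, and Rsph9 at 14.7, 9.51, 9.85 and 8.05 CPM and 6.25, 10.6 and 12.96 CPM. The 2 spoke head genes overlapped between the groups.

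Of the nexin link, tether and doublet genes, Cfap43 was at 29.8, 30.7, 33.7 and 31.04 CPM with isotype and 35.3, 49.5 and 73.1 CPM with anti-IL-33, without overlap, and its estimate of 0.66 had an adjusted p of 0.0996. Drc1 was at 13.2, 12.2, 12.2 and 14.5 CPM and 10.8, 17.9 and 26.7 CPM, and Ccdc153 at 47.4, 32.7, 30.6 and 25.5 CPM and 37.6, 44.02 and 62.9 CPM. Both overlapped, and neither passed. Spag6l was at 9.73, 7.195, 7.05 and 8.84 CPM and 7.77, 11.5 and 23.1 CPM, Tekt1 at 12.9, 10.7, 8.75 and 8.15 CPM and 9.61, 13.9 and 21.9 CPM, and Cfap52 at 7.94, 6.83, 7.78 and 9.82 CPM and 8.56, 11.3 and 19.6 CPM. Capsl was at 10.6, 9.88, 10.6 and 8.05 CPM and 7.07, 11.8 and 15.2 CPM. Ak8, whose highest group mean was that of anti-IL-33, was at 3.97, 5.97, 4.74 and 6.38 CPM and 6.11, 8.08 and 10.4 CPM, with an estimate of 0.56 that missed the threshold (adjusted p = 0.0557).

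Against HDM 15 weeks without antibody, 36 members rose under anti-IL-33 and none fell (median 0.77), where 15.9% of all genes rose and 19.9% fell. The largest rise was again that of Cfap44 (1.31 ± 0.25 SE, adjusted p = 0.00022), and Dnah5 rose by 0.93 and Ccdc39 by 0.99. The other 7 members did not pass: Foxj1 (0.38), Mcidas (0.28), Ccno (0.02), Deup1 (0.37), Rfx3 (0.37), Rsph9 (-0.12) and Capsl (0.39). Within number range 1 (8 against 5 libraries) 27 rose, where 1458 of 15471 genes did. Within range 2 (7 against 2) none passed in edgeR's test (23 at an unadjusted p under 0.05), with a median of 0.67. In that fit 0 of 16090 genes rose and 4 fell. Without the 2 libraries that stand apart 37 rose, and without HDM 15-week replicate 4, 31. In those fits 2290 of 15577 and 1555 of 15596 genes rose. Between the isotype group and the HDM group without antibody, the references of these comparisons, edgeR called 0 of 43 members, and 0.0% of all genes in either direction, with 0 members and 933 genes at an unadjusted p under 0.05. DESeq2 called 3 genes lower and 5 higher, none of them members. The members' median there was 0.11. Anti-IL-33 against isotype and against no antibody share the anti-IL-33 libraries.

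Levels under anti-IL-33 were below saline for some members. Against saline, 15 members were lower and none higher (median -0.38), where 18.5% of all genes were lower and 20% higher. The largest was Ccdc39 (-0.85 ± 0.25 SE, adjusted p = 0.00568), followed by Tekt2 (-0.73) and Tppp3 (-0.71). Tppp3 was at 227, 259 and 314 CPM in saline and 118, 150.2 and 233 CPM with anti-IL-33, and only the top anti-IL-33 library entered the saline range. No outer arm heavy chain passed: Dnah5 had an estimate of -0.18 with a 95% interval of -0.59 to 0.23, and Foxj1 of -0.12 with -0.51 to 0.27. Rfx2 was lower (-0.44 ± 0.11 SE, adjusted p = 0.00109), as was Ccno (-0.68). Capsl had the smallest difference (-0.02) and Ak8 was the only estimate above 0 (0.30 ± 0.14 SE, adjusted p = 0.0936). The count turns on single libraries and on the range: without saline replicate 3 it was 6, within number range 1 (8 against 2) it was 0 by edgeR's test (2 at an unadjusted p under 0.05) and within range 2 it was 14. In the same order, 2652 of 15587, 169 of 15471 and 3376 of 16090 genes were lower. DESeq2 on all libraries called 16 lower, where 3081 of 15598 genes were. Without the 2 libraries that stand apart 20 members were lower, and with no range term 20. In those 2 fits 3819 of 15577 and 2891 of 15598 genes were lower.

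A wider list of 81 other motile cilia genes gave like counts. The shares of all genes beside the counts below were 27.5% lower and 29.3% higher at 4 weeks, and 28.1% lower and 31.2% higher at 15 weeks. Under anti-IL-33 against isotype they were 3.14% lower and 3.58% higher. Of these 54 fell and 0 rose at 4 weeks (median -0.66), and 69 fell and 1 rose at 15 weeks (median -1.004). Those with the largest falls at 15 weeks were Ccdc170 (-1.93), Cfap61 (-1.77), Efhc2 (-1.77) and Kif27 (-1.74), and the one that rose was the spoke gene Rsph3a (0.41), which has a near-identical copy. Under anti-IL-33 20 rose against isotype and 0 fell (median 0.53), led by Nek10 (1.53), Dnah7a (1.27), Efhb (1.21) and Ccdc170 (1.14). Genes of intraflagellar transport, the trains that carry parts into motile and primary cilia alike, had 14 lower and 1 higher of 31 at 4 weeks, and 20 lower and 1 higher at 15 weeks (medians -0.24 and -0.45). The 20 included the train subunits Ttc30b (-1.005) and Ttc26 (-1.001), and Ift20 was the one that rose (0.37). Against isotype, 4 rose under anti-IL-33, among them the retrograde motor Dync2h1 (0.71), and Ift20 fell (-0.43).

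Upstream of the axoneme genes, the programme that makes a cell multiciliated was mixed. Of 20 genes measured, 6 fell and 3 rose at 4 weeks (median -0.10), where 27.5% of all genes fell and 29.3% rose, and 12 fell and 2 rose at 15 weeks (median -0.41), where the shares were 28.1% and 31.2%. Gmnc, a geminin-family protein at the head of the programme, was at 3.13, 3.64 and 4.71 CPM in saline, 0.162, 0.556 and 0.941 at 4 weeks and 0.125, 0.585 and 1.79 at 15 weeks. All HDM libraries of both times were below all saline libraries, and Gmnc had the largest fall of the list (-2.698 ± 0.34 SE, adjusted p = 3.39e-08 at 4 weeks and -2.22 ± 0.39 SE, adjusted p = 6.36e-06 at 15 weeks). It was at 0.512, 0.366, 0.243 and 0.982 CPM with isotype and 0.278, 1.94 and 3.696 CPM with anti-IL-33, a rise of 1.803 ± 0.46 (SE, adjusted p = 0.0216). Myb, which acts early in the same programme but is also a gene of blood cell precursors, fell by 1.34 at 15 weeks and rose by 1.07 against isotype. It was at 6.66, 7.32, 7.17 and 9.13 CPM with isotype and 10.1, 16.8 and 24.5 CPM with anti-IL-33, with no overlap. Trp73 (-0.96 at 15 weeks) rose by 0.66 against isotype, and Cep120 by 0.33. Cdc20b (-1.59) and Ankrd66 (-1.42) fell at 15 weeks. Rfx4 (2.17) and the widely expressed cell cycle factor E2f4 (0.22) rose, Rfx4 from a saline median of only 0.231 CPM to 0.818 CPM.

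Markers of other lung cells moved in the same comparisons. Of all genes 27.5% fell and 29.3% rose at 4 weeks, and 28.1% fell and 31.2% rose at 15 weeks. Under anti-IL-33 against isotype 3.14% fell and 3.58% rose. Of 10 club cell markers, 8 fell and 1 rose at 15 weeks (median -1.49). Scgb1a1 was at 13370, 15870 and 24010 CPM in saline and 2512, 5946 and 7826 CPM at 15 weeks, a log2 fold change of -1.602 ± 0.24 (SE), and Scgb3a2, also a club cell secretory protein, fell by 2.33. Against isotype, 5 club cell markers rose under anti-IL-33, led by Scgb3a2 (1.72), Pon1 (1.403) and Cyp2f2 (1.202), while Scgb1a1 did not pass (0.44). Summed over the 10 club cell markers the level was 17690 to 30980 CPM in saline, 6855 to 19410 at 4 weeks, 3955 to 10820 at 15 weeks, 6839 to 9481 with isotype and 6967 to 16270 with anti-IL-33. The 43 cilia genes summed to 1366 to 2398, 587 to 1152, 353 to 994, 681 to 781 and 961 to 1769 CPM in the same order. Goblet cell markers went the other way against saline, with 9 of 10 higher at 4 weeks (median 2.41, Muc5ac 1.87), 7 of 10 higher at 15 weeks and none lower at either time. At 15 weeks Muc5ac (0.73) did not pass and Muc5b rose (1.03). Muc5b had medians of 107.1 CPM in saline, 150.8 at 4 weeks, 209.9 at 15 weeks, 127.8 with isotype and 270.7 with anti-IL-33. Its estimate under anti-IL-33 against isotype (0.91) did not pass in edgeR's test (adjusted p = 0.1403). Its highest 15-week library (817.6 CPM) was replicate 1, one of the 2 that stand apart. Under anti-IL-33 against isotype goblet estimates were split, 5 below 0 and 5 above (median -0.09), with 1 of 10 lower and none higher. Of 6 basal cell markers tested 4 rose at 4 weeks and 2 at 15 weeks, the latter share near the 31.2% of all genes. Trp63 rose at 15 weeks (1.78), while Krt5 rose at 4 weeks (median 1.15 CPM, saline median 0) and did not pass at 15 weeks.

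Outside the airway lining, 10 of 10 alveolar type II markers rose at 15 weeks, 9 of 10 alveolar type I and 9 of 10 endothelial markers fell, and 7 of 10 leukocyte markers rose. Of all genes 28.1% fell and 31.2% rose at 15 weeks. Under anti-IL-33 the shares were 3.14% lower and 3.58% higher against isotype, and 19.9% lower and 15.9% higher against no antibody. Summed leukocyte markers were 849 to 1315 CPM in saline and 2424 to 4423 at 15 weeks, although Ptprc itself, the pan-leukocyte CD45 gene, did not pass (-0.12). Of 10 general epithelial markers 5 rose and 1 fell, with Epcam at 55.9 CPM in saline and 87.1 CPM at 15 weeks (0.64). Under anti-IL-33 against isotype, 2 of 10 alveolar type I markers rose (9 estimates above 0, median 0.48), 1 of 10 alveolar type II and 1 of 10 endothelial markers fell, and all 6 mesothelial estimates were above 0 (median 0.43), 0 of them called by edgeR's test and 2 at an unadjusted p under 0.05. Against no antibody, 6 of 10 alveolar type I markers rose and 1 fell, and 6 of 10 type II markers fell. In the isotype comparison leukocyte markers had 0 of 10 called by edgeR's test (1 at an unadjusted p under 0.05), and Saa3, an acute phase gene, fell by 2.19. CPM values are shares of a library. The part of these other cells in the differences of the cilia genes was not tested. The cilia genes' change of -1.10 (median) at 15 weeks stands beside -1.49 for club, -1.40 for alveolar type I, -1.04 for endothelial and -1.44 for mesothelial markers.

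Within the anti-IL-33 group, the largest of the 5, libraries with more Foxj1 had more Scgb1a1. Over the 15 libraries Pearson's r of the log2 levels was 0.614 (permutation p = 0.0158, adjusted over 3 relations 0.0474) and Spearman's rho 0.650 (permutation p = 0.0107, adjusted 0.0321). Without the 2 libraries farthest from the median Foxj1 level r was 0.467 over 13 libraries with a permutation p of 0.108, which did not pass. Within number range 1 (8 libraries) r was 0.392 (exact permutation p = 0.333) and within range 2 (7 libraries) 0.785 (exact permutation p = 0.0452). For the mucin gene Muc5b r was 0.534 (permutation p = 0.0405, adjusted 0.0607, rho 0.354), and for Saa3 -0.129 (permutation p = 0.645). Neither passed after adjustment.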

How the data were processed

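RNA was measured in lung of mice in 43 libraries by stranded mRNA-seq (total RNA by MagMAX-96, DNase treatment, KAPA stranded kit, per the labels' protocols). The values deposited by the authors are raw counts, 1 row for each Entrez ID. The genome build was GRCm38, per the submitters' processing notes; aligner, counter, annotation and strand setting were not given in the sources used here. Of 24475 IDs, 24375 matched a symbol, and the 100 unmatched IDs held 2.62% of counts. No columns were left unused, and no 2 columns were identical (highest correlation 0.9968).

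Totals were 4.795 to 12.599 M counts (M, 1000000). Counts were scaled with TMM (factors 0.694 to 1.087), filtered with filterByExpr (minimum count 10) and fitted with edgeR 4.0.16 (limma 3.58.1, R 4.3.3), with terms for group and number range and 7 contrasts. SE is the log2 fold change divided by the square root of F. Per-library log2 values used a pseudocount of 0.1 CPM. DESeq2 1.42.0, other scalings and filters, the 2 groups alone, each number range alone, GC and length offsets (mgcv 1.9.3), and leaving out isotype libraries or the 2 that stand apart were tried as alternatives. Leaving out saline replicate 3 and HDM 15-week replicate 4 was chosen after seeing the data. On simulated counts for these 15598 genes, 2-fold changes were recovered for 80.6% of changed genes between HDM 15 weeks and saline and 76.1% between anti-IL-33 and isotype. For 1.5-fold changes the shares were 50.7% and 43.3%. Of the calls in these simulations, 5.59% and 2.78% were false. Only 200 genes were changed in each, with no effect of the number range and no deviation shared by the genes of a library. The shares therefore do not measure recovery of the members in the real libraries. Correlations used 100000 permutations (SciPy 1.17.1).

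Members and lists were chosen with earlier results of these data known. Values are given in full for a fixed set of members, any member not called lower at 15 weeks and those with the largest and smallest change in each comparison; other lists are given by counts, with the up to 4 largest called changes and Scgb1a1, Scgb3a2, Muc5ac, Muc5b, Krt5, Trp63, Epcam, Ptprc and Saa3 by name. Summed marker levels are plain sums of CPM.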

Additional observations from a re-analysis of the deposited data

Results flagged for a closer look

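In each group of 4 to 10 libraries, the top and bottom library of a member were compared with the rest by the gap to the nearest library over the whole range. Of 136 such tests of 34 members, 17 exceeded Dixon's 95% limit, where chance gives about 1 in 20 groups. HDM 4-week replicate 3 was far above its group for 5 members: Dynlrb2 at 49.6, Rsph1 at 40.4, Rsph9 at 20.6, Ccdc153 at 87.1 and Tppp3 at 296 CPM. Saline replicate 3 was far above its group for Rsph9 at 16.1, Drc1 at 41.1, Cfap43 at 93.2, Ak7 at 60.9 and Sntn at 21.4 CPM. HDM 15-week replicate 4 was far below for Dnali1 (6.06 CPM) and Drc1 (3.995 CPM), and replicate 1 of that group was far above for Rsph9 (20.8 CPM). The other 4 were Ccno in HDM 4-week replicate 2 (0.517 CPM, lowest), Deup1 in isotype replicate 2 (2.68 CPM, lowest), Rfx3 in saline replicate 1 (25.6 CPM, lowest) and Tekt2 in isotype replicate 1 (6.4 CPM, highest).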

How the results depend on the processing

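No paired analysis was possible because the labels give no replicate numbers shared between groups. Depth limits Mcidas, Ccno and Deup1, which had few reads per library. Of 2141 values of single members under the alternatives, 1880 kept direction and side of the threshold, 99 passed newly, 136 no longer passed and 26 changed sign. The filter of at least 1 CPM in 4 libraries kept the same 15598 genes, and range 2 alone was not run for the isotype comparisons (1 library). The cause of the shifts below was not tested. Counts of members called moved by over 1.5 times as follows. With range 1 alone, lower at 4 weeks was 11 (33 in the fit of all libraries), where 1026 of 15471 genes fell. For 15 against 4 weeks (2 lower) it was 6 with DESeq2, 5 with no range term, 5 with GC and length offsets, 1 with the 2 groups alone, 1 in range 1, 0 in range 2 and 0 without the 2 libraries that stand apart. In the same order, 1667, 1305 and 1784 of 15598 genes fell. The others had 563 of 14783, 647 of 15471, 58 of 16090 and 1228 of 15577 genes lower. Leaving out saline replicate 3 gave 4 and HDM 15-week replicate 4 gave 1, where 1426 of 15587 and 993 of 15596 genes fell. For anti-IL-33 against isotype (15 higher) it was 29 with the 2 groups alone, 4 in range 1, 28 without the 2 libraries that stand apart, 24 with offsets and 0 to 17 without 1 library in turn. In the first 4 of these fits 1984 of 15160, 101 of 15471, 2308 of 15577 and 611 of 15598 genes rose. Against no antibody (36 higher) it was 0 in range 2, where 0 of 16090 genes rose. Against saline (15 lower) it was 25 with the 2 groups alone (4040 of 14994 genes were lower), 0 in range 1 (169 of 15471 genes were lower), and 6 to 17 without 1 library. Members higher there were 1 in range 2 and 0 to 1 without 1 library. For Foxj1 with Saa3, r was -0.516 in range 2.

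Signs changed for the following estimates. In range 1 alone, Dynlrb2 (0.074), Rsph9 (0.173) and Ccdc153 (0.339) were above 0 at 4 weeks and Rsph9 (0.155) at 15 weeks, Deup1 was -0.052 against isotype, Mcidas -0.208 and Ccno -0.286 against no antibody, and Foxj1 0.04 and Ccdc153 0.107 under anti-IL-33 against saline. In range 2 alone, Ak8 was 0.192 at 4 weeks, Rfx3 -0.001 and Rsph9 0.147 against no antibody, and Capsl 0.128 against saline, where with the 2 groups alone it was 0.007. With offsets Rsph9 was 0.235 against isotype and 0.185 against no antibody, and without the 2 libraries that stand apart 0.084 against no antibody. Without saline replicate 3 or HDM 15-week replicate 4, the ranges were -0.049 to 0.221 for Mcidas at 4 weeks, -0.133 to 0.001 for Dynlrb2 at 4 weeks, -0.006 to 0.056 for Ak8 at 4 weeks, -0.001 to 0.063 for Rsph9 at 15 weeks, -0.144 to 0.157 for Rsph9 against isotype (without 1 library in turn), -0.104 to 0.03 for Ccno against no antibody, -0.119 to 0.062 for Foxj1 against saline under anti-IL-33, -0.097 to 0.062 for Ccdc153 against saline under anti-IL-33 and -0.013 to 0.11 for Capsl against saline under anti-IL-33.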
